A study of Mus musculus with 2 samples.

Results

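The 10 genes Odc1, Amd1, Srm, Sms, Sat1, Oaz1, Azin1, Mtap, Mri1 and Adi1 of polyamine metabolism and the methionine salvage pathway were followed through the cell types of the proximal small intestine of APC mice. They were chosen by gene symbol as genes of the pathway and are 10 of the 31053 genes in the deposited count matrices. Odc1, Amd1, Srm and Sms make the polyamines, Sat1 breaks them down, Oaz1 and Azin1 control ODC protein, and Mtap, Mri1 and Adi1 return the sulphur by-product of synthesis to methionine. Single-cell RNA-sequencing (10x Genomics 3′ v3) was performed on live, DAPI-sorted cells from 2 VilCreER Apc fl/fl mice, with 1 library per mouse. Both mice had 2 intraperitoneal injections of 2 mg tamoxifen 24 h apart and were sampled on day 4 after induction. The Villin promoter drives the tamoxifen-activated Cre recombinase in intestinal epithelium, so Apc loss is directed to epithelial cells and leukocytes keep the gene. Both mice belong to 1 group, without a control genotype, so cell classes were compared within it and no value below measures an effect of Apc loss.

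After filters, 14898 of 18445 barcodes were kept, 7941 with 81060645 unique molecular identifiers (UMIs, counted transcript molecules) in mouse 1 and 6957 with 35474260 UMIs in mouse 2. Cells were clustered without the 10 genes, and clusters were named from marker lists. Each class name therefore means a marker-defined, for example crypt-like, class. In mouse 1 and mouse 2, crypt cells numbered 115 and 29, enterocytes 760 and 174, T or innate lymphoid cells 3167 and 5294, B cells 390 and 93, plasma cells 2175 and 609, macrophages or monocytes 622 and 458, dendritic cells 219 and 156, and cycling leukocytes 40 and 44. Of the 16 crypt markers, 15 had UMIs in crypt cells of each mouse, the exception being Notum. In enterocytes 15 and 12 of them had UMIs, and Lgr5 was at 0 in both mice. The crypt markers summed to 1848 and 2045 UMIs per 1000000 UMIs in crypt cells and to 510 and 620 in enterocytes. The libraries shared 24 barcodes, and a doublet caller marked 1 cell and 0 cells, too few to have worked. Markers of other cells were present in the epithelial classes. The 9 plasma cell markers had UMIs in mouse 1 and 6 of 9 in mouse 2, with sums of 7291 and 577 CPM (UMIs per 1000000 UMIs) in crypt cells and 7790 and 1600 CPM in enterocytes. Of 18 T or innate lymphoid markers, 16 and 15 were seen in crypt cells, with sums of 492 and 369 CPM, and 16 and 11 in enterocytes, with sums of 166 and 147 CPM. Cd4 and Icos were at 0 in both classes. The 10 acinar markers summed to 627 and 1.80 CPM in crypt cells and to 1606 and 1.47 CPM in enterocytes, with 9 of 10 at 0 in mouse 2. Their part in the results was not tested.

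Polyamines (putrescine, spermidine and spermine) are small, positively charged molecules that bind RNA and DNA and that dividing cells need in quantity. Ornithine decarboxylase (Odc1) makes putrescine from ornithine, S-adenosylmethionine decarboxylase (Amd1) supplies the aminopropyl donor, and spermidine synthase (Srm) and spermine synthase (Sms) attach it, each releasing methylthioadenosine. Mtap cleaves methylthioadenosine, and Mri1 and Adi1 act further along the salvage route to methionine. In the intestine the pathway is best known in the proliferating crypt, where MYC, a target of Wnt signalling that is held down by APC, is a textbook activator of Odc1.

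Much of the control of these genes acts after transcription, and a pair of short sequences is shown because RNA counts cannot read that control. Antizyme, the product of Oaz1, sends ODC protein for degradation and is made in full only when ribosomes slip by one base at a stop codon, which polyamines promote. The Oaz1 site lies in coding exon sequence at chr10:80828265-80828321 (mm10, plus strand), with the codon before the stop and the stop codon in capitals. The leader of the Amd1 message holds a very short upstream reading frame on which ribosomes stall when polyamines are plentiful, at chr10:40302155-40302175 (mm10, minus strand), shown whole in capitals.
Oaz1 frameshift site: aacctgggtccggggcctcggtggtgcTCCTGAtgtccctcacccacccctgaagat
Amd1 upstream reading frame: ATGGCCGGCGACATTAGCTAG

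Since MYC binds the E-box CACGTG, the RefSeq promoter windows of the members (250 bases before to 50 after each start, mm10) were searched for it. The motif is its own reverse complement, so 1 search covers both strands. Windows were found for 7 of the 10 genes, and Srm, Azin1 and Adi1 had none in the table. Of 8 windows, 1 held the motif, against 2349 of all 32851 windows (7.15%). That window belongs to Sms and is shown at chrX:157492258-157492537 (minus strand), with the E-box in capitals. The Odc1 window is shown beside it at chr12:17544623-17544902 (plus strand) and does not hold these letters. The stretches shown hold 280 of the 300 bases searched, from 250 before to 30 after the start. A match in a window is a description only. Sequence outside the windows was not searched, so neither a match nor its absence tells whether MYC binds a gene.
Sms: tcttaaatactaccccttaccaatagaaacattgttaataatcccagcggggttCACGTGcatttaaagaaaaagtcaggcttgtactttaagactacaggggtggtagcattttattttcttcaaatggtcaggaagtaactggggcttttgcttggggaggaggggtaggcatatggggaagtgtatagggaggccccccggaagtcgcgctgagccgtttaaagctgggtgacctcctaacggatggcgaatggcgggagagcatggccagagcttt
Odc1: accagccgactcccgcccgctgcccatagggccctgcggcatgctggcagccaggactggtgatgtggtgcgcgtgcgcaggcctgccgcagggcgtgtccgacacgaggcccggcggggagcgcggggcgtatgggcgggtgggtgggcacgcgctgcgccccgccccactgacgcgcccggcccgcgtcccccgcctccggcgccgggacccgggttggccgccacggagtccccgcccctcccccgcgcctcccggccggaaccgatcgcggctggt

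In mm10 the synthesis genes lie at chr12:17544794-17551505 (Odc1, plus strand), chr10:40287458-40302186 (Amd1, minus strand), chr4:148591503-148594993 (Srm, plus strand) and chrX:157443855-157492287 (Sms, minus strand). Sat1 lies on the same chromosome as Sms, at chrX:155213132-155216449 (minus strand). Oaz1 is at chr10:80826656-80829290 (plus strand), Azin1 at chr15:38487427-38519266 (minus strand), Mtap at chr4:89137122-89181081 (plus strand), Adi1 at chr12:28675231-28682175 (plus strand) and Mri1 at chr8:84249906-84257326 (minus strand). These positions are from GENCODE M21, and each spans the whole gene. Amd1 has a near-identical copy, Amd2, which held 118 UMIs against 901 for Amd1 in the 8 classes, so the Amd1 values are uncertain to the extent that reads were split between them. Mtap and Azin1 overlap genes on the opposite strand, and Gm49077 at the Azin1 locus held 47 UMIs against 6410 for Azin1.

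Levels are given as CPM, the UMIs of a gene per 1000000 UMIs of its class in 1 mouse, with the value of mouse 1 before that of mouse 2. In such sums, fewer expressing cells and fewer molecules per cell cannot be told apart. Odc1 was at 164 and 232 CPM in crypt cells, 180 and 129 in cycling leukocytes, 137 and 108 in dendritic cells and 121 and 105 in enterocytes. Macrophages or monocytes followed with 69.8 and 88.9, T or innate lymphoid cells with 77.1 and 50.2, plasma cells with 66.4 and 39.2 and B cells with 40.6 and 33.6. Crypt cells held the highest mean, but the ranges of crypt cells, cycling leukocytes and dendritic cells overlapped in turn. Immunoglobulin genes made up 61.3% and 61.1% of plasma cell UMIs, which lowers every other gene there, and without them plasma cell Odc1 was at 172 and 101 CPM. They were also 26.4% and 22.8% of cycling leukocyte UMIs, and without them that class held the highest mean, with 245 and 167 CPM of Odc1.

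Amd1 separated crypt cells from every other class. It was at 52.0 and 59.3 CPM in crypt cells, at 13.96 and 13.3 in enterocytes and at 16.3 and 7.68 in cycling leukocytes, and the other 5 classes lay between 5.03 and 13.7. Sms, the last synthesis enzyme, was also highest in crypt cells, at 122 and 117 CPM, but T or innate lymphoid cells (97.7 and 98.0) and B cells (90.6 and 88.3) came close behind. Enterocytes had 32.3 and 32.4 CPM of Sms, macrophages or monocytes 27.2 and 33.9, and plasma cells 11.6 and 10.4.

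Srm was arranged otherwise. Cycling leukocytes led with 160 and 117 CPM, followed by crypt cells with 79.1 and 71.9, dendritic cells with 60.1 and 61.0 and macrophages or monocytes with 47.4 and 51.6. T or innate lymphoid cells had 19.99 and 14.1 and enterocytes 10.3 and 8.84 CPM. The 8 classes did not overlap in their order of Srm, and the highest mean was 14.5 times the lowest. Without immunoglobulin genes, plasma cells held 122 and 97.6 CPM of Srm, above crypt cells at 80.5 and 72.0, and the highest mean was 19.1 times the lowest. Spermidine synthase and spermine synthase transcripts therefore parted within leukocytes: the log2 ratio of Srm to Sms UMIs was -2.29 and -2.80 in T or innate lymphoid cells but 2.03 and 1.87 in plasma cells and 1.34 and 0.91 in cycling leukocytes.

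Sat1, which acetylates spermidine and spermine for export or oxidation, had its highest class mean 40.6 times the lowest, the widest range of the 10 genes. That range rested in part on the immunoglobulin share of plasma cells, and without those genes it was 16.2 times, below the 19.1 times of Srm. It was at 963 and 747 CPM in macrophages or monocytes and at 299 and 414 CPM in enterocytes. Dendritic cells had 243 and 199, B cells 200 and 181 and crypt cells 156 and 121 CPM. Cycling leukocytes had 72.9 and 28.8 and plasma cells 21.3 and 20.8 CPM, the low end of the order. Oaz1 ran from 341 and 361 CPM in plasma cells to 1027 and 1221 in dendritic cells, with the highest mean 3.20 times the lowest. Without immunoglobulin genes, Oaz1 was at 881 and 930 CPM in plasma cells, and its class means differed by 1.84 times. Azin1, which binds antizyme and so frees ODC, was highest in enterocytes at 131 and 205 CPM, above crypt cells at 89.3 and 128 CPM. That order rested on 1 enterocyte cluster led by Ada and Krt20. Without it, enterocytes held 126 and 121 CPM of Azin1, which overlapped crypt cells. With immunoglobulin genes left out, Azin1 was at 119 and 150 CPM in plasma cells and 120 and 138 in cycling leukocytes. On that scale crypt cells had 90.9 and 128 CPM and all enterocytes 133 and 205.

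Of the salvage genes, Mtap was highest in crypt cells, at 71.2 and 55.8 CPM, and the highest value in any other class was 25.3 CPM. It stood at 12.6 and 8.84 CPM in enterocytes and at 6.67 and 6.44 in plasma cells, and in B cells at 25.3 and, from 1 UMI, 4.20. Adi1 followed the same outline at a lower level, with 33.9 and 34.2 CPM in crypt cells and 10.3 and 13.3 in enterocytes. Mri1 was not highest in crypt cells: T or innate lymphoid cells had 77.8 and 66.1 CPM, above the 61.6 and 46.8 of crypt cells.

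**Figure D1:**
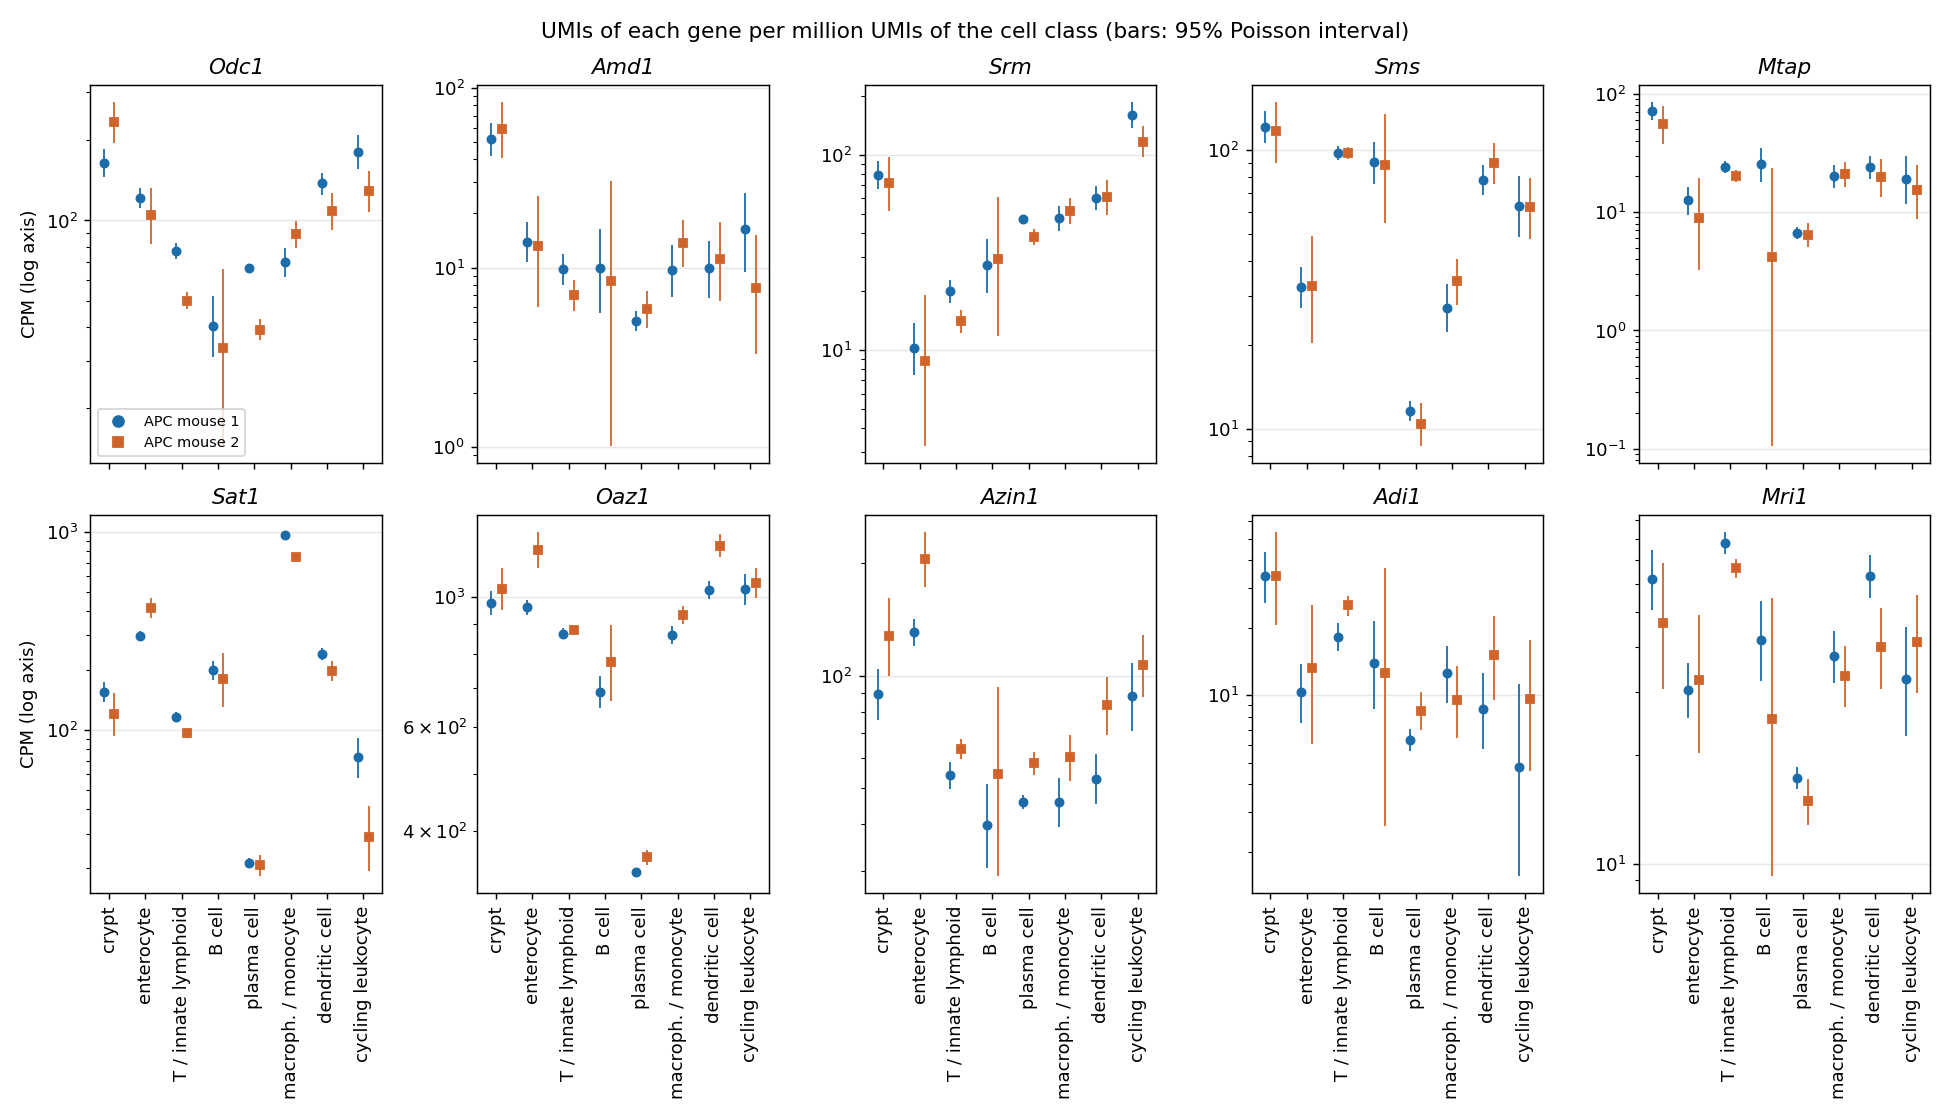
CPM on a log axis of each of the 10 genes in the 8 cell classes, with 1 point per APC mouse and 95% Poisson intervals that cover counting error only. Amd1, Sms, Mtap and Adi1 are highest in crypt cells of both mice, Srm in cycling leukocytes, Sat1 in macrophages or monocytes and Azin1 in enterocytes, whereas Oaz1 differs by 3.20 times between class means, and by 1.84 times without immunoglobulin genes.

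The contrast of crypt cells with enterocytes asked how the pathway differs between the proliferating and the absorptive epithelium of the same mice. Srm, Mtap, Amd1, Sms and Adi1 were higher in crypt cells, and Sat1 and Azin1 were lower. Sums per mouse and class were tested with edgeR's quasi-likelihood test with Benjamini-Hochberg adjustment over 12253 genes, all 10 members among them, and a gene was called at an adjusted p under 0.05. Of the 10 genes, 5 were called higher and 2 lower, where 18.3% of all genes were called higher and 20.3% lower. The median log2 difference of the 10 genes was 0.94, against 0 over all genes. The p-values measure the spread between the class sums of 2 mice, and the compared classes come from the same 2 libraries.

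Srm differed most, by 2.64 ± 0.33 on the log2 scale (SE, adjusted p 4.32e-05, edgeR), a 6.24-fold difference, with 2.60 in mouse 1 alone and 2.80 in mouse 2 alone. Mtap was higher by 2.18 ± 0.40 (adjusted p 0.000832, edgeR), Amd1 by 1.70 ± 0.33 (adjusted p 0.00123), Sms by 1.60 ± 0.23 (adjusted p 0.000117) and Adi1 by 1.33 ± 0.32 (adjusted p 0.00501). These 5 calls held in each of the 14 alternative settings. Odc1, the first enzyme of the pathway, was the 1 synthesis gene not called. Its log2 difference was 0.51 ± 0.37 (adjusted p 0.31, edgeR), with 0.11 in mouse 1 alone and 0.94 in mouse 2 alone. It was called in 0 of the 14 alternatives, whose adjusted p ran from 0.0866 to 0.50. Without the enterocyte cluster led by Ada and Krt20, Odc1 in enterocytes was at 119 and 74.9 CPM in place of 121 and 105. Sat1 was 3.05-fold lower in crypt cells (log2 difference -1.61 ± 0.37, adjusted p 0.00387, edgeR), and the groups of values did not overlap, 156 and 121 CPM against 299 and 414. Azin1 was lower by a log2 difference of -0.89 ± 0.25 (adjusted p 0.0129, edgeR). That call was kept in 11 of 14 alternatives and lost when the compared classes were fitted alone, at the finer clustering and without the enterocyte cluster led by Ada and Krt20. Without that cluster the log2 difference was -0.49 (adjusted p 0.115, edgeR), and Azin1 was not called. Oaz1 at -0.37 ± 0.17 (adjusted p 0.108) and Mri1 at 0.55 ± 0.34 (adjusted p 0.237) were not called, although 4 of 14 alternatives called Oaz1.

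Cells of the crypt class were deeper, with medians of 12025 and 18151 UMIs against 3539.5 and 2177.5 in enterocytes, and carried proliferation transcripts: 53.0% and 72.4% had an Mki67 UMI, against 1.71% and 2.30% of enterocytes. The part of cycling in these differences was not tested. An Odc1 UMI was found in 77.4% and 89.7% of crypt cells and in 37.9% and 27.6% of enterocytes. Thinned to 1000 UMIs per cell, which left out 145 and 45 enterocytes, the shares were 14.7% and 20.6% against 11.6% and 11.96%, so the gap was narrower at equal depth. For Srm the thinned shares were 7.05% and 5.97% in crypt cells and 0.97% and 0.44% in enterocytes, and for Sat1 they were 11.7% and 11.7% in crypt cells and 23.1% and 33.0% in enterocytes. The order of the CPM was thus kept for both genes at equal depth. As a gauge of leukocyte RNA, Ptprc, the leukocyte gene for CD45, had a UMI in 11.3% and 20.7% of crypt cells and in 6.58% and 2.30% of enterocytes. Thinned to 1000 UMIs, the shares were 1.69% and 9.75% against 1.51% and 0.46%. Free RNA and doublets with leukocytes cannot be told apart by this share.

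**Figure D2:**
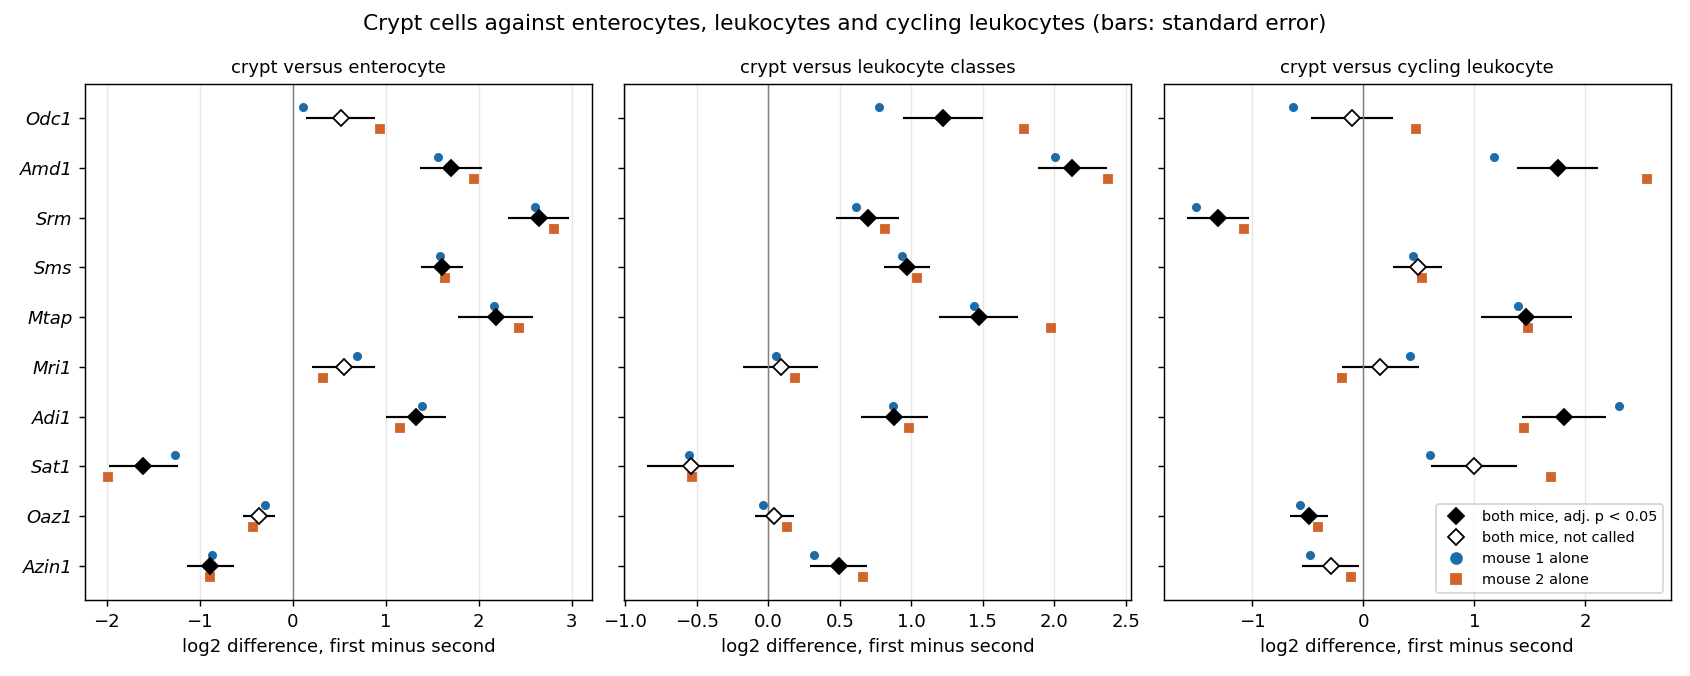
Log2 differences of the 10 genes between crypt cells and, from left to right, enterocytes, the mean of leukocyte classes and cycling leukocytes, with standard errors, filled diamonds for an adjusted p under 0.05 (edgeR) and smaller points for each mouse alone. Amd1, Mtap and Adi1 lie to the right of 0 and are filled in each panel, whereas Srm is 2.64 above enterocytes and 1.31 below cycling leukocytes.

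Set against the mean of 4 leukocyte classes (T or innate lymphoid cells, B cells, plasma cells and macrophages or monocytes), crypt cells were higher in 7 of the 10 genes and lower in 0, where 27.4% of all genes were called higher and 32.8% lower. All 4 synthesis genes were among them. Amd1 was higher by 2.13 ± 0.24 on the log2 scale (adjusted p 5.85e-06, edgeR) and Odc1 by 1.22 ± 0.28 (adjusted p 0.0018), Odc1 with 0.78 in mouse 1 alone and 1.79 in mouse 2 alone. Sms differed by 0.97 ± 0.16 (adjusted p 0.000157) and Srm by 0.70 ± 0.22 (adjusted p 0.014), and the finer clustering ended the Srm call (adjusted p 0.0606). Mtap (1.47 ± 0.27, adjusted p 0.000413), Adi1 (0.88 ± 0.24, adjusted p 0.00524) and Azin1 (0.49 ± 0.20, adjusted p 0.0449) completed the 7. Azin1 was at 0.32 in mouse 1 alone, and 2 of 14 alternatives ended its call. Sat1 was at -0.54 ± 0.30 (adjusted p 0.137, edgeR), which became a call with mouse as a block (adjusted p 0.0405). The median of all genes in this contrast was -0.34.

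Enterocytes, set against the same leukocyte mean, were higher in Azin1, Sat1, Odc1 and Oaz1 and lower in Srm and Sms. These were 4 genes higher and 2 lower, where 28.5% and 38.7% of all genes were called, and the all-gene median was -0.46. Azin1 was higher by 1.38 ± 0.18 (adjusted p 1.57e-05, edgeR) and Sat1 by 1.06 ± 0.27 (adjusted p 0.00298), Sat1 with 0.71 in mouse 1 alone and 1.45 in mouse 2 alone. Odc1 differed by 0.71 ± 0.28 (adjusted p 0.0396), a call that 3 of 14 alternatives ended, and Oaz1 by 0.41 ± 0.13 (adjusted p 0.013), with 0.26 in mouse 1 alone. Srm was lower, at -1.94 ± 0.28 (adjusted p 3.95e-05, edgeR), and Sms at -0.63 ± 0.18 (adjusted p 0.00813), the latter called in 8 of 14 alternatives. Without the cluster led by Ada and Krt20, Odc1 was at 0.54 (adjusted p 0.136, edgeR) and was not called, and Azin1 at 0.99 (adjusted p 0.000197) was. Mouse as a block added Mtap (adjusted p 0.0146) and Mri1 (adjusted p 0.0312) to the genes called lower. With immunoglobulin genes left out, 4191 genes were higher and 3762 lower in place of 3494 and 4738. This contrast shares its class sums with the crypt contrasts, so the values stand side by side and are not independent.

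Cycling leukocytes were compared with T or innate lymphoid cells to see the same genes in dividing cells that kept Apc. The immunoglobulin share of cycling leukocytes given with the levels means that this class included cells with plasma cell RNA. Its plasma cell markers summed to 95489 and 82746 CPM and its T or innate lymphoid markers to 1212 and 4098 CPM. In T or innate lymphoid cells, the latter markers summed to 32150 and 35517 CPM. Division and cell type therefore cannot be told apart in this contrast. Odc1, Amd1, Srm, Oaz1 and Azin1 were higher and Adi1 was lower, 5 and 1 of 10 genes against 15.7% and 24.3% of all genes. Srm was 11.4-fold higher (log2 difference 3.51 ± 0.29, adjusted p 1.97e-06, edgeR), with 3.48 and 3.53 in single mice. Odc1 was higher by 1.76 ± 0.37 (adjusted p 0.00218), Azin1 by 1.21 ± 0.25 (adjusted p 0.00178) and Oaz1 by 0.74 ± 0.17 (adjusted p 0.00359). Amd1 was higher by 1.00 ± 0.38 (adjusted p 0.0485), with 0.60 in mouse 2 alone, and 4 of 12 alternatives ended the call. Adi1 was at -1.10 ± 0.36 (adjusted p 0.0248), called in 6 of 12 alternatives, whereas Sms was at -0.15 ± 0.21 (adjusted p 0.606) and Sat1 at -0.57 ± 0.38 (adjusted p 0.259). The all-gene median was -0.49, and scaling by relative log expression gave 2475 genes higher and 2159 lower in place of 1920 and 2975. DESeq2 gave 2450 and 1816, and the pair of classes fitted alone gave 2318 and 1997.

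Crypt cells and cycling leukocytes were then compared directly, in a contrast chosen after the data were seen. Mtap, Amd1 and Adi1 were higher in crypt cells and Srm and Oaz1 were lower, 3 and 2 of 10 genes against 17.4% and 20.4% of all genes. Adi1 differed by 1.81 ± 0.38 (adjusted p 0.00217, edgeR), Amd1 by 1.75 ± 0.36 (adjusted p 0.00217) and Mtap by 1.47 ± 0.41 (adjusted p 0.0125). Srm was lower by 1.31 ± 0.28 on the log2 scale with an adjusted p of 0.00257 (edgeR). Oaz1 was at -0.49 ± 0.17 (adjusted p 0.0364), called in 9 of 13 alternatives. Odc1 gave -0.10 ± 0.37 (adjusted p 0.885, edgeR), with -0.63 in mouse 1 alone and 0.48 in mouse 2 alone, so the mice differed in sign. Sat1 was 1.00 ± 0.39 above cycling leukocytes (adjusted p 0.0573, edgeR), and 10 of 13 alternatives called it, the block among them (adjusted p 0.0113). With mitochondrial UMIs allowed up to 10%, 3167 genes were higher and 2288 lower in place of 2137 and 2503.

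Plasma cells, which secrete antibody, were compared with B cells. Odc1, Srm, Azin1 and Oaz1 were higher and Sat1 and Sms lower in plasma cells, 4 and 2 of 10 genes against 17.2% and 10.2% of all genes. The scaling factors of the test offset the immunoglobulin share, so the differences do not follow the CPM directly. Srm was higher by 2.40 ± 0.31 (adjusted p 8.09e-05, edgeR), Odc1 by 2.27 ± 0.41 (adjusted p 0.00102), Azin1 by 2.01 ± 0.27 (adjusted p 0.000113) and Oaz1 by 0.80 ± 0.17 (adjusted p 0.00316). Sat1 was at -1.36 ± 0.37 (adjusted p 0.0144, edgeR) and Sms at -1.21 ± 0.22 (adjusted p 0.000989). These 6 calls held in each of 11 alternatives. With immunoglobulin genes left out, 1732 genes were higher and 1626 lower in place of 2102 and 1246, relative log expression gave 1809 and 1737, and DESeq2 gave 1631 and 1699.

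Macrophages or monocytes differed from T or innate lymphoid cells above all in Sat1, which was 10.1-fold higher (log2 difference 3.33 ± 0.39, adjusted p 1.3e-05, edgeR), with 3.33 in either mouse alone. Srm was higher by 1.86 ± 0.27 (adjusted p 9.66e-05) and Amd1 by 0.80 ± 0.30 (adjusted p 0.0428), Amd1 with 0.26 in mouse 1 alone and 1.32 in mouse 2 alone and its call ended by 4 of 12 alternatives. Sms was lower, at -1.35 ± 0.21 (adjusted p 0.000147, edgeR). These were 3 genes higher and 1 lower, where 24.4% and 22.3% of all genes were called. Odc1 was at 0.63 ± 0.36 (adjusted p 0.168, edgeR), and it was called with mouse as a block (adjusted p 0.0425) and without the Il22-led lymphoid cluster described further on (log2 difference 1.198, adjusted p 0.0109). The block also called Mri1 (-0.69, adjusted p 0.00811) and Adi1 (-0.61, adjusted p 0.0408) lower. With mitochondrial UMIs up to 10%, 2422 genes were higher and 3312 lower in place of 2995 and 2732.

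Synthesis and breakdown transcripts were set side by side by the log2 ratio of summed Odc1, Amd1, Srm and Sms UMIs to Sat1 UMIs in each mouse and class, with no test. Ratios of UMIs within a class do not depend on how the class was scaled. Crypt cells were at 1.42 and 2.00 and enterocytes at -0.75 and -1.38, so the UMIs of the 4 synthesis genes together outnumbered those of Sat1 in crypt cells, and those of Sat1 outnumbered them in enterocytes, in both mice. The difference between the means was 2.77, with single-mouse values of 2.17 and 3.37. The numerator sums 4 genes and the denominator is 1, so 0 is no point of balance. As the mean of the 4 single log2 ratios to Sat1, crypt cells were at -0.71 and -0.21 and enterocytes at -3.44 and -3.99, a difference of 3.25 between the means. Among leukocytes, cycling leukocytes (2.53 and 3.46) and plasma cells (2.61 and 2.17) were at the synthesis end. T or innate lymphoid cells (0.81 and 0.82), dendritic cells (0.24 and 0.44) and B cells (-0.25 and -0.18) followed, and macrophages or monocytes (-2.64 and -1.99) were at the Sat1 end. Set over Oaz1, the ratios of synthesis were below 0 in each class, from -1.23 and -1.10 in crypt cells to -2.43 and -2.92 in enterocytes, with cycling leukocytes at -1.29 and -1.74 beside crypt cells. The log2 ratio of Azin1 to Oaz1 was -3.45 and -3.01 in crypt cells and -2.88 and -2.55 in enterocytes, so Azin1 was the smaller of the pair in both classes and larger relative to Oaz1 in enterocytes.

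**Figure D3:**
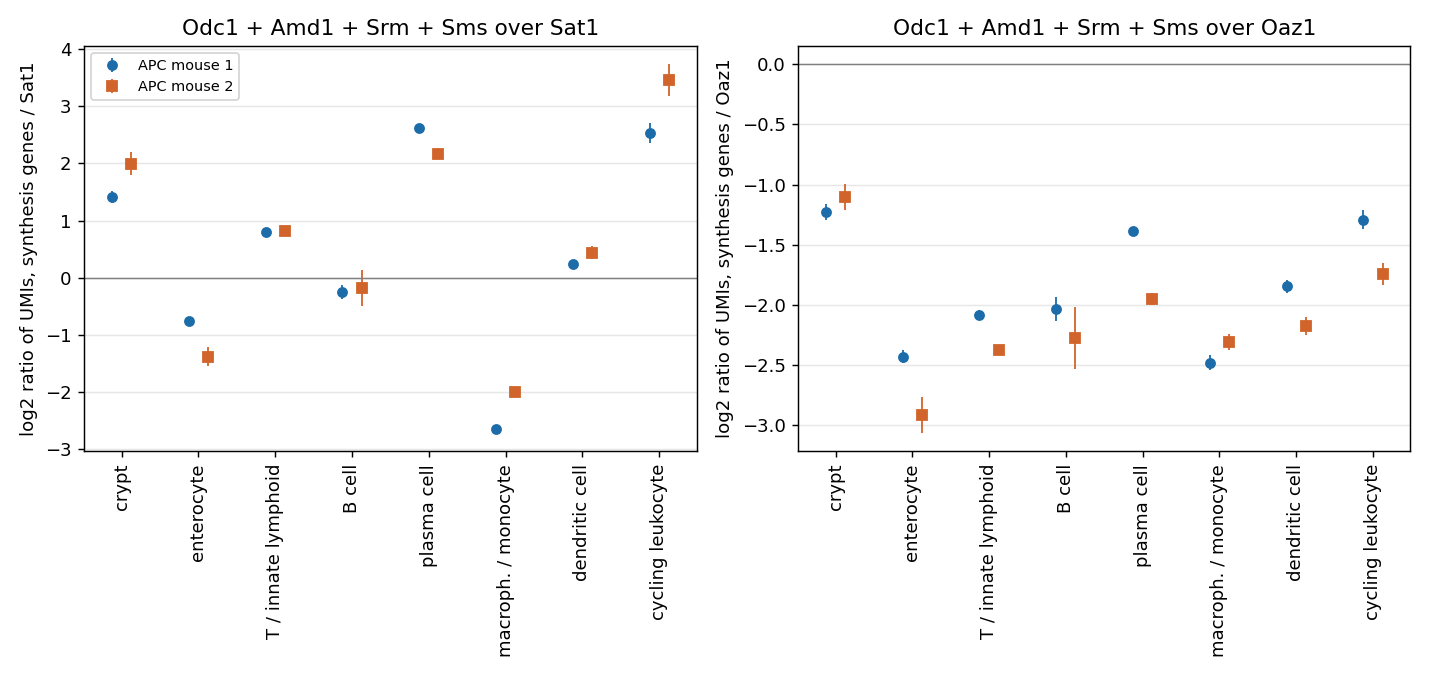
Log2 ratio of summed Odc1, Amd1, Srm and Sms UMIs to Sat1 UMIs (left) and to Oaz1 UMIs (right) in the 8 cell classes, with 1 point per APC mouse and the standard error of counting. Crypt cells, plasma cells, cycling leukocytes, T or innate lymphoid cells and dendritic cells lie above 0 against Sat1 in both mice. Enterocytes, B cells and macrophages or monocytes lie below 0 against Sat1 in both mice, and each class lies below 0 against Oaz1.

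Within the T or innate lymphoid class, Odc1 was concentrated in 1 small cluster, which was singled out after its values were seen and is given as a description with no test. Its leading genes were Prr29, Il22, Rasl11a and Nrgn, and it held 90 and 53 cells, or 2.84% and 1.00% of the class. Il7r (877 and 451 UMIs) and Kit (129 and 78), genes familiar from innate lymphoid cells, were present, as were T-cell receptor transcripts such as Trbc2 (279 and 101 UMIs). Odc1 reached 765 and 977 CPM there, the highest level of any named cluster, against 46.5 and 39.4 CPM in the other 8 clusters together, 16.5-fold and 24.8-fold more. The cluster supplied 42.3% and 22.4% of the Odc1 UMIs of the class. The next cluster, led by Foxp3, the regulatory T-cell factor, had 110 and 160 CPM.

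An Odc1 UMI was seen in 73.3% and 77.4% of cells of the Il22-led cluster, whose median depths were 4570.5 and 3190 UMIs. The same share was 8.08% and 6.97% in the largest cluster, led by Cd8b1, at 3067 and 2498 UMIs. At 1000 UMIs per cell the shares were 44.0% and 49.8% against 2.80% and 2.78%, so the gap was kept at equal depth. The other synthesis genes differed less: Srm was at 34.8 and 17.4 CPM (19.3 and 14.1 in the other clusters) and Sms at 128 and 122 CPM (96.4 and 97.7). Amd1 was at 17.4 CPM from 8 UMIs in mouse 1 (9.47 in the other clusters) and had 2 UMIs in mouse 2. On the side of breakdown, Sat1 was at 476 and 465 CPM (101 and 91.7 in the other clusters), and Smox, spermine oxidase, was at 95.6 and 52.3 CPM (1.55 and 1.36), with 44 of the 60 and 9 of the 29 Smox UMIs of the class. Oaz1 was at 1949 and 2146 CPM (817 and 863). Myc had 3 and 0 UMIs and Mki67 0 and 0 UMIs in the cluster.

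**Figure D4:**
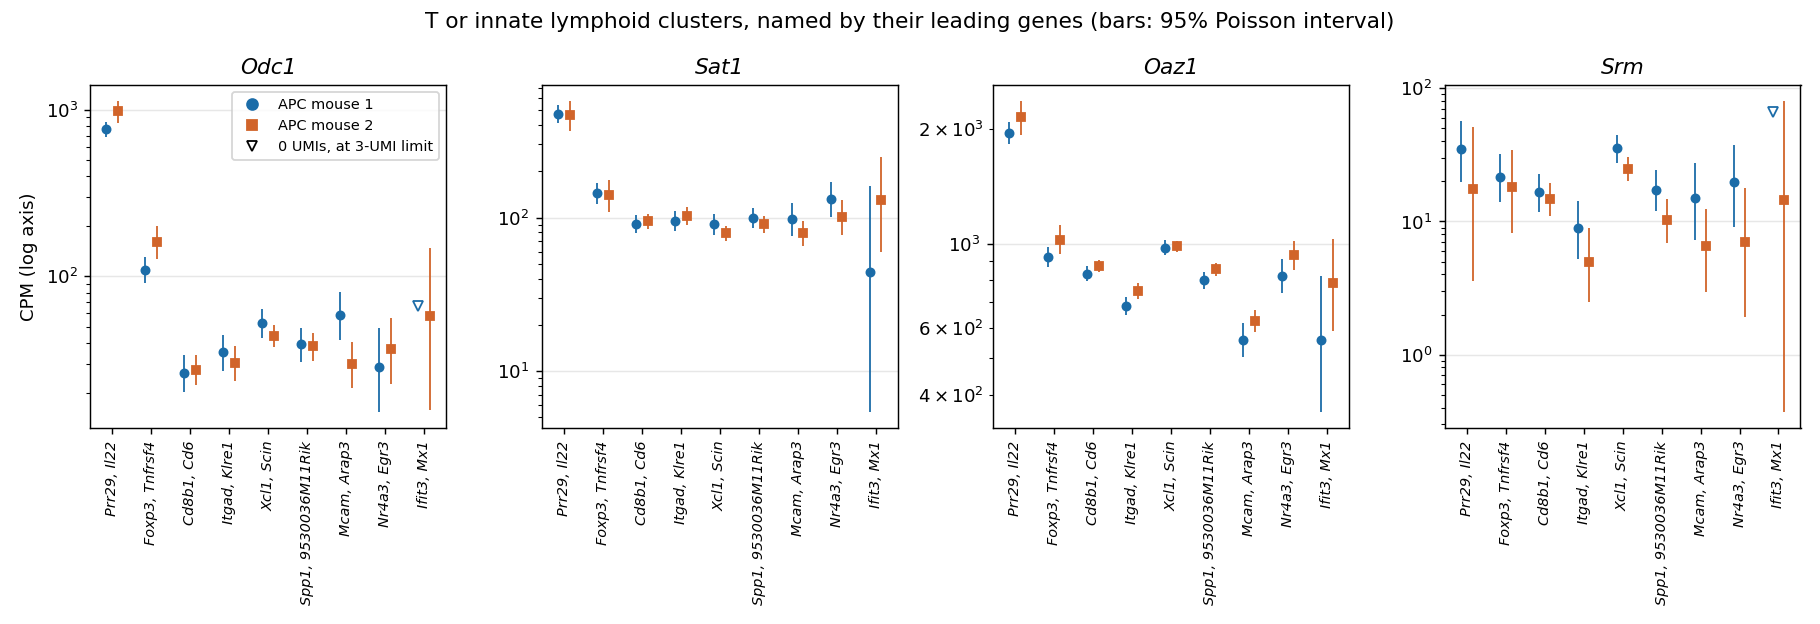
CPM on a log axis of Odc1, Sat1, Oaz1 and Srm in the 9 T or innate lymphoid clusters, labelled by leading genes, with 1 point per APC mouse, 95% Poisson intervals and open triangles at the 3-UMI limit for clusters with 0 UMIs. The Il22-led cluster holds 765 and 977 CPM of Odc1, and its Sat1 and Oaz1 are also above those of the other 8 clusters, while its Srm is not set apart.

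Clusters inside other classes varied as well, again as descriptions. Among dendritic cells, Odc1 was at 166 and 181 CPM in the cluster led by Ppp1r14a, Ccl17 and Plet1 and at 32.8 and 10.8 CPM in the cluster led by Siglech. The former was deeper, with medians of 15744 and 14161 UMIs against 8275.5 and 6226. Thinned to 1000 UMIs, 13.3% and 14.7% of its cells had an Odc1 UMI, against 3.01% and 1.24%. In the former, 7 of 12 cycling leukocyte markers were also raised, and the part of cycling was not tested. Of the macrophage or monocyte clusters, the one led by Pf4 and Ms4a7 had more Sat1 (1472 and 1106 CPM against 693 and 641) and less Odc1 (35.4 and 45.6 against 88.1 and 102) than the one led by Chil3 and Fn1. Sat1 was thus high in both, and Odc1 was higher where Sat1 was lower. Among enterocytes, the cluster led by Ada and Krt20 (84 and 49 cells) held 252 and 746 CPM of Azin1 and 168 and 296 CPM of Odc1, with 0 UMIs of Srm in both mice. Its cells were shallow, with medians of 1506.5 and 1411 UMIs. In the other 4 enterocyte clusters Azin1 ran from 50.005 to 158 CPM.

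A further 24 genes around the pathway were read, of which 21 passed the filter and Sat2, Oaz3 and Azin2 did not. In crypt cells against enterocytes, 5 of the 21 were higher, 4 lower and 12 not called, beside 18.3% and 20.3% of all genes called, with a median log2 difference of -0.03. Both remaining salvage genes were higher, Enoph1 by 1.39 ± 0.36 (adjusted p 0.00716, edgeR) and Apip by 0.95 ± 0.34 (adjusted p 0.0395, called in 8 of 14 alternatives). With Mtap and Adi1, 4 of the 5 measured salvage genes were therefore higher in crypt cells, Mri1 being the exception. Eif5a, whose protein carries hypusine made from spermidine, was higher by 1.23 ± 0.25 (adjusted p 0.00151, edgeR), while Dhps, which starts that modification, was lower (-0.90 ± 0.30, adjusted p 0.0309). Myc, at 74.1 and 103 CPM in crypt cells and 17.6 and 26.5 in enterocytes, was higher by 1.79 ± 0.33 (adjusted p 0.000836, edgeR). Mat2a, which makes S-adenosylmethionine, was higher by 0.82 ± 0.25 (adjusted p 0.0173), with 0.50 in mouse 1 alone, and 10 of 14 alternatives called it.

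Of the 4 genes listed for the supply of ornithine or, for Agmat, of putrescine, 0 were higher, 2 were lower and 2 (Arg1 and Agmat) were not called. Arg2, the arginase that makes ornithine in mitochondria, had 8 and 9 UMIs in crypt cells (4.52 and 16.2 CPM) against 865 and 144 UMIs in enterocytes (198 and 212 CPM), a log2 difference of -4.94 ± 0.46 (adjusted p 8.68e-06, edgeR). Oat, which interconverts ornithine and glutamate semialdehyde, was at 424 and 806 CPM in crypt cells and 1042 and 1491 in enterocytes (-1.31 ± 0.33, adjusted p 0.00614, edgeR). Paox, which oxidises acetylated polyamines, was also lower in crypt cells (-1.32 ± 0.35, adjusted p 0.00902), with -0.82 in mouse 2 alone. Paox and Sat1, which act one after the other, were thus both lower in crypt cells than in enterocytes, whereas Smox at 1.46 ± 0.74 (adjusted p 0.145) was not called. In the other contrasts, the same 21 genes were counted beside the shares of all genes called. For crypt cells against leukocytes, 12 were higher and 5 lower (27.4% and 32.8% of all genes), and for enterocytes against leukocytes 7 and 4 (28.5% and 38.7%). Against T or innate lymphoid cells, 3 were higher and 1 lower in cycling leukocytes (15.7% and 24.3%), and 11 and 1 in macrophages or monocytes (24.4% and 22.3%). Plasma cells against B cells gave 3 and 1 (17.2% and 10.2%), and crypt cells against cycling leukocytes 8 and 4 (17.4% and 20.4%).

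Over the 16 class sums, the genes whose log2 CPM followed Odc1 most closely among 12083 were Lrrc59 (Pearson r 0.94), Psmd7, Lage3, Snrnp27 and Psmd6 (r 0.93 each). Of the members, Oaz1 was nearest to Odc1 (r 0.83, rank 114), and Sms (r -0.08) and Sat1 (r -0.19) were far from it. For Sat1 the closest were Nampt and Sdcbp (r 0.93 each), Clta and Sgk1 (r 0.91 each) and Lamp1 (r 0.90), and its r with each other member was negative. The sums share 2 libraries and differ in depth, so these correlations only describe the profiles.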

How the data were processed

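Live proximal intestinal cells from 2 APC mice gave 1 library each. The authors aligned reads to mm10 with Cell Ranger 6.1.2, and the deposited matrices hold whole-number UMI counts per gene and barcode, with gene and barcode names in the other deposited files. The annotation release is not given in the sources used here. Barcodes with over 100 genes, over 400 UMIs, under 5% mitochondrial and under 10% haemoglobin UMIs were kept. Cells were integrated and clustered (Seurat 5.3.0, 2000 variable genes, 30 dimensions, resolution 0.8) without the 10 genes and the pathway genes, and doublets were not removed, except in an alternative that dropped the top 8% of Scrublet scores (scanpy 1.11.5, 635 and 557 cells). Clusters were named from marker lists, and 331 cells stayed unnamed. Counts were summed per mouse for each of the 8 classes that held 20 or more cells per mouse and tested with edgeR 4.0.16 (TMM scaling, filterByExpr, quasi-likelihood, two-sided, Benjamini-Hochberg). DESeq2 1.42.0 and other settings were alternatives. In the fit with mouse as a block, numbers pair sums because they come from the same animal and library: over 28 pairs of classes the deviations correlated with a median r of 0.22 (lowest 0.09). Floors are 3 UMIs, and intervals cover counting error only. The number of UMIs per cell sets the precision. All 10 members are named whatever their values, and pathway genes are named where called between crypt cells and enterocytes. Members and lists were chosen with earlier results of these data known. The script was tested on simulated data.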

Additional observations from a re-analysis of the deposited data

Results flagged for a closer look

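Odc1 was also present in barcodes and clusters that entered no comparison, above the limit that a count of 0 allows. The barcodes removed by the filters held 338 Odc1 UMIs (73.3 CPM) in mouse 1 and 131 (40.4 CPM) in mouse 2. The pancreatic acinar cluster, seen in mouse 1, held 73 Odc1 UMIs (44.0 CPM). An unnamed epithelial cluster (70 and 27 cells) led by Avil and Rgs13 held 9 Odc1 UMIs (99.98 CPM) in mouse 1. Lgr5 was also among its leading genes, and 8 of 16 crypt markers were raised. Avil is in the list of tuft cell markers, and whether this cluster holds crypt cells alone was not tested. It was left out of the crypt class for its low UMIs and is the sub-cluster joined to that class in an alternative. Another unnamed cluster, led by Cck and Reg4, held 44 Odc1 UMIs (79.1 CPM) in mouse 1 and 50 (125 CPM) in mouse 2.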

How the results depend on the processing

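The 2 mice and 29 crypt cells of mouse 2 limit the precision. Over the alternatives, 571 values for single genes kept their side of the threshold, 34 lost it, 17 gained it and 3 changed sign, and in single mice 70 moved less than the spread, 25 moved more and 1 changed sign. With relative log expression, the change in log2 difference was taken gene by gene. Its median over all genes was -0.08 (crypt cells against enterocytes), 0.23 (crypt cells against leukocytes) and 0.32 (enterocytes against leukocytes). For the other contrasts it was 0.27 (cycling leukocytes), 0.13 (macrophages or monocytes), -0.17 (plasma cells) and 0.06 (crypt cells against cycling leukocytes).

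Members called lower in crypt cells than in enterocytes went from 2 to 1 with the compared classes alone, at resolution 1.2 and without the enterocyte cluster led by Ada and Krt20. Against leukocytes, crypt cells had 1 lower member with the replicate block in place of 0. Enterocytes had 1 lower member in place of 2 under DESeq2, relative log expression, no filter, 10% mitochondrial UMIs, doublet removal and without immunoglobulin genes, 4 with the replicate block and 5 at resolution 0.4. Cycling leukocytes against T or innate lymphoid cells had 3 higher members in place of 5 without the filter, 0 lower in place of 1 under DESeq2, relative log expression, the compared classes alone, resolution 1.2 and without immunoglobulin genes, and 2 lower without integration and at 10% mitochondrial UMIs. DESeq2 there called 1816 genes lower in place of 2975. Macrophages or monocytes had 2 lower members in place of 1 without the filter, with the compared classes alone and at resolution 1.2, and 3 with the replicate block, without integration and at 10% mitochondrial UMIs. Crypt cells against cycling leukocytes had 5 higher members in place of 3 under DESeq2, relative log expression, resolution 1.2, no integration and 10% mitochondrial UMIs, and 1 lower in place of 2 without the filter, without integration, at 10% mitochondrial UMIs and with a low-UMI sub-cluster joined to the crypt class. This last alternative, that contrast and the removal of the Il22-led and of the Ada-led cluster were chosen after seeing the data. Odc1 in that contrast was -0.10 and changed sign to 0.041 without the filter, 0.0037 without integration, 0.14 at 10% mitochondrial UMIs and, between single mice, ran from -0.63 to 0.48. The crypt minus enterocyte difference in synthesis over Oaz1 was 1.51, and 1.99 as the mean of 4 single ratios. The causes were not tested.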
